A study of Mus musculus with 5 samples.

Results

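Tenocytes, the matrix-producing fibroblasts of tendon, were the cells that the authors' deposited annotation called Tenocytes, and they were labelled at day 7 and at day 0. There were 88 such cells among the 5680 annotated cells of day 7 after injury and 70 among the 5176 annotated cells of day 0, so 158 of the 10856 cells of both days. Single cells of a lower leg muscle, the tibialis anterior, were sequenced in droplets (10x Genomics 3' v2) from mice of the C57Bl/6 strain. The day 7 mouse or mice were male, 4 months old and injured with notexin, a venom phospholipase that destroys muscle fibres, and the day 0 mice were female, 4 months old and uninjured. All muscles were digested with collagenase D and dispase II, red cells were lysed, and live cells were sorted by propidium iodide and calcein staining. Each day had 1 count matrix, and the 2 sequencing runs of day 0 share a matrix in which their cells cannot be told apart. Nothing tells how many animals a library holds. Every difference between days therefore compares 2 libraries without a replicate or a test, and day cannot be told apart from sex. In tenocytes the female X inactivation RNA Xist had 0 UMIs at day 7 and 221 at day 0, and the Y-linked Ddx3y had 48 at day 7 and 0 at day 0.

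Tendons join muscle to bone and consist mainly of type I collagen fibrils. Tenocytes arise from cells that express the transcription factor scleraxis (Scx), and they make the fibrils together with small proteoglycans, such as fibromodulin (Fmod), that bind collagen and set how fibrils grow. Tenomodulin (Tnmd) is a membrane protein found in tendon and ligament, and thrombospondin 4 (Thbs4) and cartilage oligomeric matrix protein (Comp) are secreted matrix proteins that are abundant there. Fibro-adipogenic progenitors (FAPs), the interstitial fibroblasts of muscle, served for comparison: 1889 cells at day 7, of which 1537 were labelled FAPs and 352 FAPs (activated), and 3516 cells at day 0.

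Tenocytes had a median of 7129 UMIs (counted mRNA molecules) per cell at day 7, with a range of 2631 to 26526, and 5320.5 at day 0, with a range of 1451 to 14962. The lowest count per labelled cell differed between the libraries, and all tenocytes of a day together held 743495 UMIs at day 7 and 409353 at day 0. Levels below are UMIs of a gene summed over the cells of a class, per 1000000 UMIs of that class (cpm). A log2 ratio carries in brackets the 95% interval that counting error alone gives. A gene was taken as measured with at least 20 UMIs over both groups compared, and as higher or lower when the ratio passed 2-fold. Of the cell barcodes, 39 occurred in both the day 7 and the day 0 matrix, 0.751% of the smaller matrix.

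The labelled cells carried the tenocyte markers at both days. All 5 markers had a UMI in 42 of the 88 day 7 tenocytes and in 39 of the 70 day 0 tenocytes, and no tenocyte had fewer than 3 of them. Tnmd stood at 3516 cpm in day 7 tenocytes and 24.3 cpm in day 7 FAPs, against 3383 and 14.8 cpm in the same classes at day 0. Scx stood at 545 and 3.12 cpm in tenocytes and FAPs at day 7, and at 371 and 0.551 cpm at day 0. Both genes were thus more than 100-fold higher in tenocytes than in FAPs at either day, with log2 ratios of 7.17 and 7.84 for Tnmd and of 7.45 and 9.40 for Scx at days 7 and 0. Fmod was 7.99 (log2) above FAPs at day 7 and 9.84 at day 0, and Comp 4.10 and 5.34. Since the label was made from the expression of these cells, such counts and ratios describe it and test nothing.

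**Figure D1:**
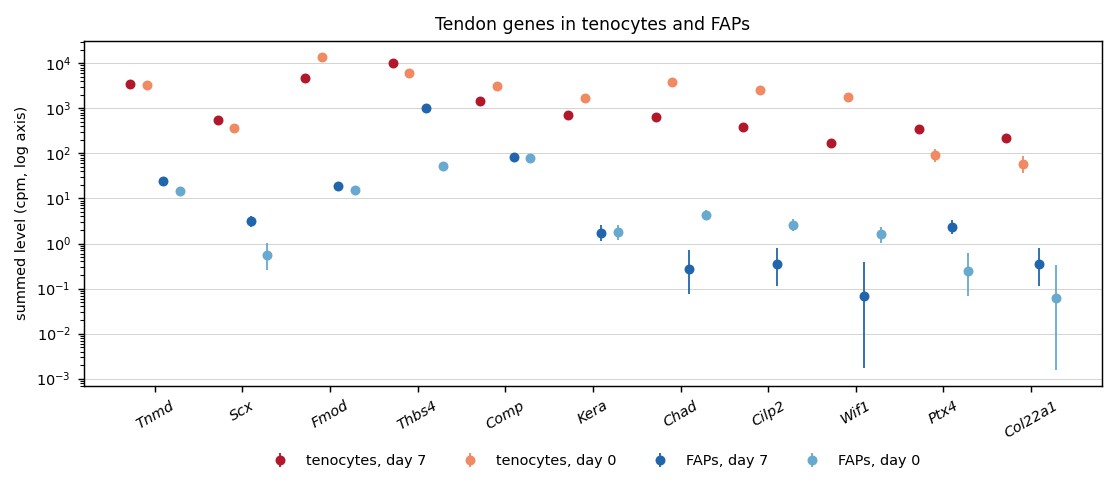
Summed level of 11 tendon genes (cpm, log axis) in day 7 tenocytes, day 0 tenocytes, day 7 FAPs and day 0 FAPs, with bars for the 95% counting interval. Tenocyte points lie above FAP points for every gene at both days, and Thbs4 is the gene of the plot with the highest level in day 7 FAPs, 1013 cpm.

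Beyond the markers, the gene furthest above FAPs at day 7 was Reg3g, an antimicrobial lectin (log2 12.20), but 90.9% of its UMIs lay in 1 tenocyte, and Slpi, a protease inhibitor (8.50), also rested mainly on 1 cell. Next to Reg3g came Wif1, a secreted Wnt inhibitor, at 174 cpm in tenocytes against 0.0693 cpm in FAPs. Chad, chondroadherin, a leucine-rich repeat protein that binds collagen, stood at 636 against 0.277 cpm, and Cilp2, a cartilage intermediate layer protein, at 379 against 0.347 cpm. Kera (keratocan, a small proteoglycan) stood at 695 against 1.73 cpm, and Col22a1, a collagen of tissue junctions such as that between muscle and tendon, at 217 against 0.347 cpm. The same 4 genes Wif1, Chad, Cilp2 and Kera led at day 0 with log2 ratios of 10.11, 9.80, 9.98 and 9.88, together with Gpha2 (10.50), a glycoprotein hormone subunit, Uts2r (9.94), the urotensin receptor, and Matn3 (9.98), a cartilage matrix protein. Each of these genes was at or near 0 in FAPs.

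Genes at the other end marked the interstitial fibroblast. At day 7 the smallest ratios of tenocytes over FAPs were those of Fst (follistatin, an activin inhibitor, -6.62), Efemp1 (-6.60), Scara5 (-6.49), the B-cell chemokine Cxcl13 (-6.18) and Pi16 (-5.94), and at day 0 those of Osr2 (-5.53), Inmt (-5.13), Gas7 (-4.81), Ccl7 (-4.56) and D630033O11Rik (-4.34). The summed level of 9 FAP markers was 976 cpm in tenocytes against 9871 cpm in FAPs at day 7, and 2502 against 15804 cpm at day 0. Of 11601 genes measured at day 7, 906 (7.81%) were higher and 1357 (11.7%) lower in tenocytes than in FAPs, and of 10959 at day 0, 1058 (9.65%) were higher and 1794 (16.4%) lower. The whole counting interval passed 2-fold for 299 (2.58%) and 291 (2.51%) of them at day 7, and for 306 (2.79%) and 293 (2.67%) at day 0. FAPs held 14425301 UMIs at day 7 and 16340055 at day 0, so a gene could count as measured with few tenocyte UMIs. The excess of lower genes depended on this filter. With at least 1 UMI, 1541 were higher and 1357 lower at day 7, and 1636 and 1794 at day 0. Of 10471 genes measured at both days, 689 were higher in tenocytes at day 7 and 896 at day 0, and 310 were on both lists, 45.0% of the day 7 list and 34.6% of the day 0 list. Above 32-fold, 26 genes were shared, 61.9% of the 42 at day 7 and 50% of the 52 at day 0.

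Tenocytes made up 1.55% of annotated cells at day 7 (1.24 to 1.91, exact binomial 95% interval) and 1.35% at day 0 (1.06 to 1.71). Among cells with a non-immune label they were 2.98% at day 7 and 1.43% at day 0. All annotated cells had a median depth of 5991 UMIs at day 7 and 3832.5 at day 0. Among them, cells of any label with at least 3 of the 5 markers were 186 (3.27%) at day 7 and 86 (1.66%) at day 0. With every cell thinned to 1000 UMIs, day 7 had 80 of them (1.41%, 1.12 to 1.75) and day 0 had 68 (1.31%, 1.02 to 1.66), so at equal depth the intervals overlapped. Cells labelled plain FAPs held 86 such cells at day 7 (5.60% of them) and FAPs at day 0 held 13 (0.37%), and after thinning 3 (0.195%) and 2 (0.0569%). Thbs4, one of the 5, stood at 1013 cpm in all FAPs of day 7 against 52.1 cpm at day 0, a log2 ratio of 4.28. After each cell was thinned to 1000 UMIs, Thbs4 was found in 100% of tenocytes, 39.5% of FAPs and 1.54% of endothelial cells at day 7, against 90.0%, 2.67% and 1.10% at day 0, where the median depth of the unthinned endothelial cells was 4281 UMIs at day 7 and 2203 at day 0.

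At day 7 the markers moved apart from each other. Tnmd was level between days, at 3516 cpm at day 7 and 3383 cpm at day 0 (log2 0.06, -0.04 to 0.15). In single tenocytes it ran from 0 through a median of 2922 to 11508 cpm at day 7 and from 540 through 3456 to 7881 cpm at day 0, so the range was wider at day 7 around a similar centre. Fmod stood at 4837 cpm at day 7 and 13871 cpm at day 0 (log2 -1.52, -1.58 to -1.46). Its median cell had 2988 cpm at day 7 and 12719.6 cpm at day 0, while the highest cells were alike, at 39100.3 and 39438 cpm. Comp stood at 1459 cpm at day 7 and 3156 cpm at day 0 (log2 -1.11, -1.23 to -0.995), with a median cell of 342 against 2891 cpm. Thbs4 stood at 9952 cpm at day 7 and 6215 cpm at day 0 (0.68, 0.61 to 0.74) and Scx at 545 and 371 cpm (0.55, 0.28 to 0.83), neither past 2-fold.

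**Figure D2:**
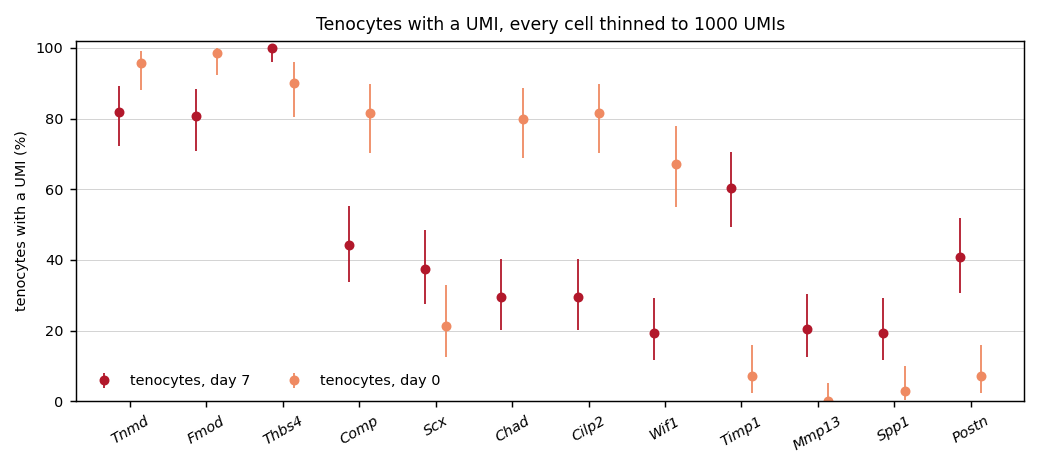
Share of tenocytes with a UMI of each of 12 genes (percent), day 7 left of day 0, after every cell was thinned to 1000 UMIs, with exact binomial 95% intervals. Comp, Chad, Cilp2 and Wif1 were found in 19.3% to 44.3% of day 7 tenocytes and in 67.1% to 81.4% of day 0 tenocytes, and Timp1 in 60.2% and 7.14%.

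Over all genes, 741 of the 5733 measured (12.9%) were higher and 447 (7.80%) lower in day 7 than in day 0 tenocytes, and 168 (2.93%) and 147 (2.56%) were so over the whole counting interval. The same counts in FAPs, which come from the same 2 libraries, were 1320 (9.99%) and 1404 (10.6%) of 13214, with 768 (5.81%) and 751 (5.68%) over the whole interval. The median log2 ratio over all measured genes was 0.14 in tenocytes and -0.08 in FAPs. The gene lists below are read against these background shares.

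**Figure D3:**
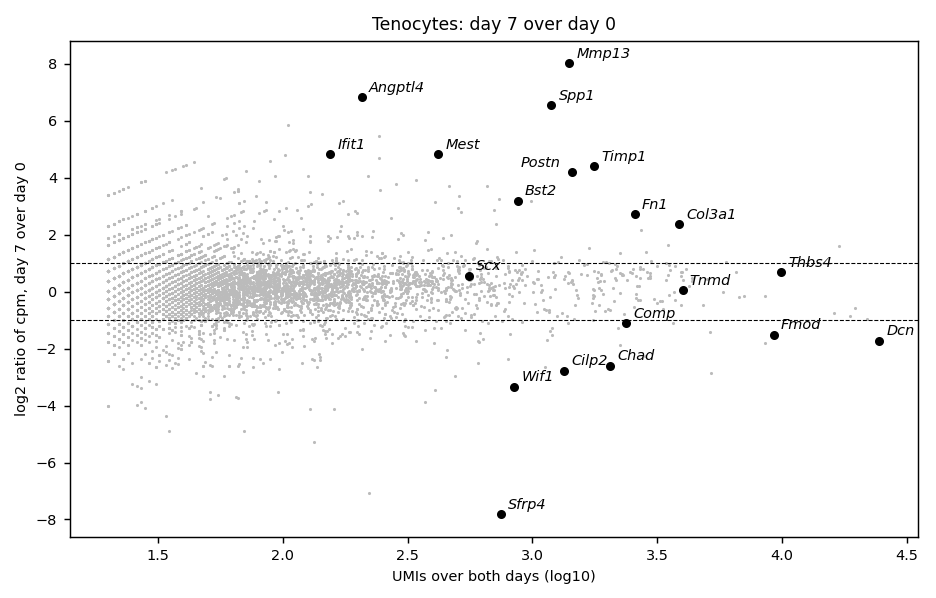
Log2 ratio of cpm in tenocytes, day 7 over day 0, against the UMIs of the gene over both days (log10), 1 point per measured gene, with 20 genes named and dashed lines at 2-fold. Mmp13, drawn at its lower bound of 8.01, and Sfrp4 at -7.81 lie at the extremes, and Tnmd lies at 0.06.

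Genes of the differentiated tendon cell stood lower at day 7. Of 17 tendon differentiation genes, all measured, 10 were lower and 1 higher, against 7.80% and 12.9% of all genes, with a median log2 ratio of -1.27 in tenocytes and 0.05 in FAPs. Chad stood at 636 cpm at day 7 and 3870 cpm at day 0 (-2.60, -2.76 to -2.46), and its median cell had 0 cpm at day 7 and 3031 cpm at day 0. Cilp2 stood at 379 and 2597 cpm (-2.78, -2.97 to -2.58) and Wif1 at 174 and 1756 cpm (-3.34, -3.62 to -3.07). All 3 genes were thus 6-fold to 10-fold lower at day 7, and the thinned shares of cells with a UMI, 29.5%, 29.5% and 19.3% at day 7 against 80.0%, 81.4% and 67.1% at day 0, ran the same way. Angptl7, an angiopoietin-like secreted protein, stood at 340 cpm at day 7 and 2133 cpm at day 0 (-2.65). The others were Clu (-1.80), Igfbp6 (-2.26), Cpxm2 (-1.37), Kera (-1.27), Fmod and Comp.

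Within this list Ptx4, a pentraxin-family gene, was the member called higher, at 356 cpm at day 7 and 90.4 cpm at day 0 (1.98, 1.48 to 2.52), and its FAP level was 2.36 and 0.245 cpm. Cilp (0.71), Col11a1 (0.51), Col11a2 (-0.86) and Htra1 (-0.40) stayed within 2-fold. Among tendon transcription factors 7 of 11 were measured, 1 was higher and 0 were lower. Mkx (Mohawk, which drives type I collagen in tendon) stood at 76.7 cpm at day 7 and 142 cpm at day 0 (-0.89, -1.44 to -0.33), and Egr1, an early growth response factor, at 924 and 1546 cpm (-0.74). Egr2 was the one called higher, at 60.5 and 22.0 cpm (1.46, 0.41 to 2.68), from 23 and 7 cells. Without the tenocytes that carried macrophage or mature muscle markers, described at the end, Egr2 was at 0.96, within 2-fold, and Mkx at -1.16, past it, so 0 of 5 measured factors were higher and 1 lower. Mkx was also past 2-fold as a mean over cells (-1.04) and without cells above 2 times the median UMI count (-1.15).

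The collagen genes separated by type. Col1a1 and Col1a2, the chains of type I collagen, stood at 12714 and 11334 cpm in day 7 tenocytes and at 22758 and 19001 cpm in day 0 tenocytes (log2 -0.84 and -0.75). In FAPs the same genes were at 14062 and 10530 cpm at day 7 and at 2008 and 2148 cpm at day 0 (2.81 and 2.29). Tenocytes therefore lay 3.50 (log2) above FAPs for Col1a1 at day 0 and at -0.15 at day 7. Sparc, a collagen-binding glycoprotein, showed the same order, at 14178 and 27812 cpm in tenocytes (-0.97) and 15710 and 3930 cpm in FAPs (2.00) at days 7 and 0.

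Of the 20 collagens measured, 8 were higher and 1 lower at day 7, with a median of 0.52 in tenocytes and 1.86 in FAPs. Col3a1, the type III collagen of healing tissue, stood at 4698 cpm at day 7 and 911 cpm at day 0 in tenocytes (2.37, 2.21 to 2.52) and at 20538 and 4037 cpm in FAPs (2.35). Both classes thus had about 5 times the day 0 level, and tenocytes stayed below FAPs at both days (-2.13 and -2.15). The other higher collagens were the basement membrane chains Col4a1 (2.00), Col4a2 (2.73) and Col18a1 (4.25, from 31 cells at day 7 and 2 at day 0), the fibril-regulating Col5a1 (1.94), Col5a2 (1.78) and Col5a3 (1.12), and Col6a3 (1.71). Col8a2 was lower (-1.57). Col12a1, a fibril-associated collagen of tendon, stood at 433 and 369 cpm (0.23, -0.05 to 0.52) and Col11a1 at 441 and 310 cpm (0.51).

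**Figure D4:**
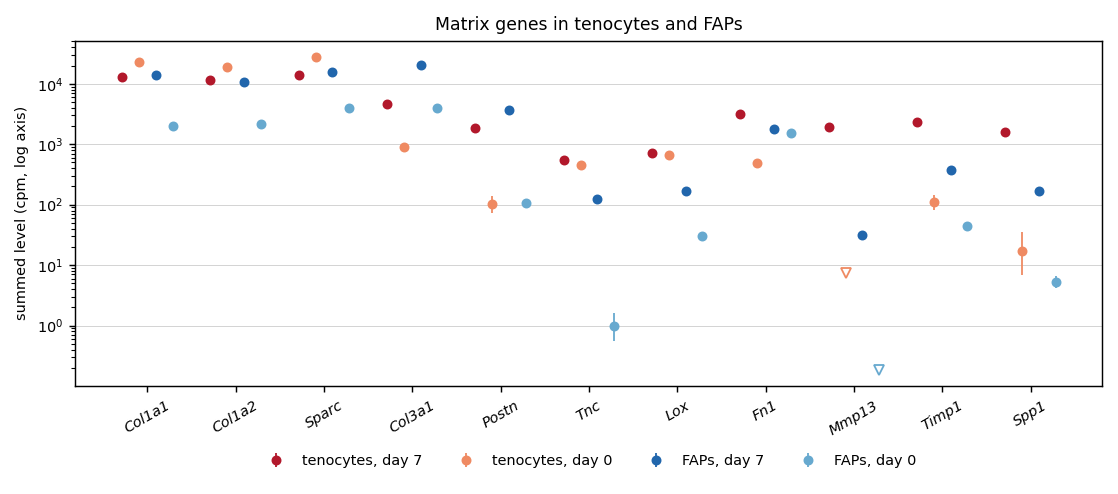
Summed level of 11 matrix genes (cpm, log axis) in day 7 tenocytes, day 0 tenocytes, day 7 FAPs and day 0 FAPs, with 95% counting intervals. Open triangles mark Mmp13 at 0 UMIs and are drawn at 3 counts. Col1a1, Col1a2 and Sparc are lower at day 7 than at day 0 in tenocytes and higher in FAPs, and Col3a1, Postn and Timp1 are higher at day 7 in both.

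Small leucine-rich proteoglycans, which coat collagen fibrils, mostly stood lower. Of 13 measured, 8 were lower and 3 higher at day 7, with a median of -1.52 in tenocytes and -0.57 in FAPs. Decorin (Dcn) stood at 11759 cpm at day 7 and 38747 cpm at day 0 (-1.72, -1.76 to -1.68), and Prelp at 281 and 1444 cpm (-2.36). The others lower were Fmod, Kera and Chad, given above, with Omd (-2.61), Podn (-1.76) and Epyc (-2.67), the last found in 1 tenocyte at day 7 and 2 at day 0. Biglycan (Bgn) was higher at 3188 and 1512 cpm (1.08), as were lumican (Lum, 1.01) and asporin (Aspn, 1.10). Without the tenocytes that carried at least 3 of 8 macrophage or of 8 mature muscle markers, 8 were lower and 1 higher.

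Matricellular proteins, secreted proteins that act on cells more than they bear load, moved both ways. Of 21 measured, 5 were higher and 7 lower at day 7, with a median of -0.49 in tenocytes and 0.24 in FAPs. Periostin (Postn) stood at 1875 cpm at day 7 and 103 cpm at day 0 (4.19, 3.75 to 4.67), with a UMI in 58 and 8 tenocytes, and in FAPs at 3742 and 107 cpm (5.13). Cthrc1, a secreted protein of matrix-remodelling fibroblasts, stood at 936 and 97.7 cpm in tenocytes (3.26) and at 966 and 7.04 cpm in FAPs (7.10). Fibronectin (Fn1) stood at 3193 cpm at day 7 and 489 cpm at day 0 (2.71, 2.50 to 2.92), with FAPs at 1811 and 1526 cpm (0.25). Fn1 was thus below FAPs at day 0 (-1.64) and above them at day 7 (0.82).

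Tenascin C (Tnc), found at tendon and at the junction of muscle and tendon, showed the opposite layout. Tenocytes had 541 cpm at day 7 and 447 cpm at day 0 (0.27, 0.02 to 0.53), and FAPs 124 and 0.979 cpm (6.98), so the tenocyte level over FAPs was 2.13 at day 7 and 8.83 at day 0. Tnxb, the tenascin of loose connective tissue, stood at 41.7 and 259 cpm (-2.63). Spp1 (osteopontin, a secreted phosphoprotein) stood at 1592 cpm at day 7 and 17.1 cpm at day 0 (6.54, 5.49 to 7.86), with a UMI in 37 and 4 tenocytes. One day 7 cell, the deepest with 26526 UMIs, held 42.5% of the Spp1 UMIs, and the ratio without it was 5.80. Spp1 also stood at 3428 cpm in the cells labelled anti-inflammatory macrophages of day 7 and was found in 3.85% of thinned endothelial cells, against 19.3% of thinned tenocytes, and the part of free RNA in the tenocyte value was not tested.

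Genes that fold and crosslink collagen included 5 of 23 that were higher and 2 that were lower, with a median of 0.42 in tenocytes and 0.87 in FAPs. Loxl1, a lysyl oxidase-like enzyme, stood at 338 and 92.8 cpm at days 7 and 0 (1.86), P4hb, a subunit of prolyl hydroxylase, at 459 and 203 cpm (1.18), P4ha3 at 48.4 and 7.33 cpm (2.72), and Plod2 and P3h1 also passed 2-fold (1.54 and 1.04). P4ha3 counted as measured only through its day 7 UMIs, where it was high. The prolyl hydroxylase subunit P4ha1 was lower at 163 and 540 cpm (-1.73), as was the procollagen enhancer Pcolce2 at 125 and 967 cpm (-2.95). Lox, the main crosslinking oxidase, stood at 729 and 655 cpm in tenocytes (0.16, -0.06 to 0.37) and at 168 and 30.5 cpm in FAPs (2.46). Of 16 elastic fibre genes, 4 were higher and 4 lower, among them Fbln7 (1.83), Efemp2 (1.26) and Fbn2 (4.31, from 21 cells and 1 cell) on the higher side and elastin (Eln, -2.83), Ltbp4 (-2.40), Fbln1 (-1.68) and Ltbp1 (-1.67) on the lower. Ltbp2, the fourth on the higher side, had 0 UMIs at day 0 and was at least 9.91-fold higher at day 7, with 72.6 cpm in 29 cells. Ltbp2 counted as measured through day 7 alone and could only be called higher. Mfap4 stood at 1462 and 2260 cpm in tenocytes (-0.63) and at 883 and 102.1 cpm in FAPs (3.11).

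The largest ratio among the named genes was that of Mmp13, collagenase 3, which cleaves fibrillar collagen. It had 1409 UMIs (1895 cpm) in 22 of the 88 day 7 tenocytes and was not listed at day 0, where a gene needed a UMI in at least 3 barcodes, so it was at least 259-fold higher at day 7 when day 0 was set to 3 counts. Most of its UMIs came from few cells: the top 5 cells held 66.1%, and the top cell 28.1%. In FAPs of day 7 it stood at 31.8 cpm, and after thinning it was found in 20.5% of tenocytes (12.6 to 30.4), 1.27% of FAPs and 0.192% of endothelial cells. Mmp13 lies on chromosome 9 of mm10, from 7272514 to 7283331 on the plus strand. The 250 bases before its RefSeq start (GRCm38.p6, chr9:7272264-7272513, plus strand, 5′ to 3′) are shown because AP-1 factors such as Fos and Jun are known to bind a site in this promoter; capitals mark the match to TGANTCA, which reads the same on both strands.
Mmp13: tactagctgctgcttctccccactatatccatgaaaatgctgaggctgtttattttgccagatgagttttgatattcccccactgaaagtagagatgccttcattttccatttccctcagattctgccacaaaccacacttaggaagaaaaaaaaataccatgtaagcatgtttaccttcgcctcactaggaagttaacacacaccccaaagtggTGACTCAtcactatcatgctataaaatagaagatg
The match lies 28 bases from the start. TGANTCA was found in the same window of 6.87% of 27025 genes and of 2 of the 15 genes of the protease list that had an entry (13.3%).

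Timp1, the inhibitor of matrix metalloproteinases, stood at 2319 cpm at day 7 and 110 cpm at day 0 (4.40, 3.97 to 4.86) and at 379 and 45.2 cpm in FAPs (3.07). It had a UMI in 81 of 88 tenocytes at day 7 and in 17 of 70 at day 0. The median cell had 1087 cpm at day 7 and 0 at day 0. Timp1 was thus spread over most day 7 tenocytes where Mmp13 was in 22 of 88. Of the 14 measured proteases and inhibitors, 5 were higher and 1 lower, with a median of -0.14 in tenocytes and 0.53 in FAPs. The membrane-bound Mmp14 stood at 643 and 92.8 cpm (2.79), Mmp2 at 1338 and 657 cpm (1.03) and stromelysin Mmp3 at 121 and 17.1 cpm (2.82, from 12 and 4 cells). Mmp13 and Mmp3 counted as measured only through their day 7 UMIs, where they were high. Part of the share called higher therefore follows from the filter. Timp3 was lower at 163 and 806 cpm (-2.31), and Timp2 stood at 1919 and 2001 cpm (-0.06).

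Wnt modulators stood lower. Of 7 measured, 5 were lower and 0 higher at day 7, namely 4 secreted proteins and the nuclear factor Tcf7l2, with a median of -3.34 in tenocytes and -0.17 in FAPs. Sfrp4, a decoy for Wnt ligands, stood at 8.07 cpm at day 7 and 1808 cpm at day 0 (-7.81, -9.26 to -6.68), from 5 and 18 cells, and the top 5 day 0 cells held 73.8% of its UMIs. Sfrp2, of the same family, stood at 55.1 and 809 cpm (-3.87), also from few cells, 16 and 17. The Wnt antagonist Dkk2 stood at 5.38 and 161 cpm (-4.91), Wif1 was given above, and Tcf7l2 stood at 28.2 and 63.5 cpm (-1.17). Wisp1, a CCN matricellular protein, stood at 211 and 115 cpm in tenocytes (0.88) and 63.8 and 1.90 cpm in FAPs (5.07).

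Other signal genes were more often lower than the background of 7.80%. Of 20 measured genes of TGF-beta and BMP signalling, 2 were higher and 5 (25%) lower, and FAPs had 1 higher and 8 lower of 25. Tgfb1, the ligand, stood at 113 cpm at day 7 and 19.5 cpm at day 0 (2.53, 1.49 to 3.79), in 42 and 6 cells, and in FAPs at 50.7 and 33.8 cpm (0.59), while Tgfb2 was at 78.0 and 80.6 cpm (-0.05). The lower members included the BMP antagonist Chrdl1 (-1.35) and the ligands Bmp4 (-2.61), Bmp2 (-1.67) and Inhba (-1.93). Of 17 growth factor genes, 2 were higher and 5 (29.4%) lower: pleiotrophin (Ptn, a heparin-binding growth factor) stood at 1127 and 132 cpm (3.09) and Igfbp4 at 1648 and 757 cpm (1.12), against Fgf18 (-2.45), Igf1r (-2.14), Igfbp3 (-1.79), Angptl1 (-1.38) and Pdgfrl (-1.35) on the lower side. Without the tenocytes with macrophage or mature muscle markers, 3 of 16 growth factor genes were higher and 3 lower, with a median of 0.002. Of 16 TGF-beta and BMP genes, 1 was then higher and 4 lower, beside 367 and 342 of 3740 over all genes. Outside the lists, Angptl4, a lipoprotein lipase inhibitor, stood at 277 cpm at day 7 and 2.44 cpm at day 0 (6.83, 4.33 to 12.14), in 51 of 88 and 1 of 70 tenocytes. Cyp26a1, which degrades retinoic acid, stood at 8.07 and 313 cpm (-5.28), in 5 and 20 cells, and Gpha2 at 20.2 and 354 cpm (-4.13), in 4 and 20 cells. The secreted Bmp3 (-3.77), adrenomedullin (Adm, -3.69) and the nuclear factor Aff3 (-3.54) completed the 10 smallest, with Sfrp4, Sfrp2, Dkk2, Wif1 and Pcolce2, where a gene had to reach 100 cpm in day 0 tenocytes and no more than 2 times that level in another label.

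The interferon response genes that could be measured mostly stood higher at day 7. Of 20 in the list, 14 were measured in tenocytes, with 13 higher and 0 lower. The median was 2.17 in tenocytes and 2.12 in FAPs, where 16 of 20 were higher. Bst2 (tetherin, which holds budding virus at the membrane) stood at 1110 cpm at day 7 and 122 cpm at day 0 (3.18, 2.77 to 3.63), in 78 and 32 cells. Ifitm3, an antiviral membrane protein, stood at 2479 and 962 cpm (1.36), Ifi27l2a at 444 and 29.3 cpm (3.92) and the regulator Irf7 at 121 and 7.33 cpm (4.05). Ifit1, an RNA-binding antiviral protein, had 155 UMIs (208 cpm) in 29 cells at day 7 and 0 at day 0, at least 28.4-fold higher, and Rtp4 was at least 12.1-fold higher. Both counted as measured through day 7 alone and could only be called higher. Irf7 and Ifi27l2a also reached 20 UMIs only through day 7, where they were high. Part of the share called higher therefore follows from the filter. After thinning, Ifit1 was in 15.9% of tenocytes and 15.0% of FAPs at day 7, and in 0% (0 to 5.13) and 1.71% at day 0. Irf1 was the exception, at 160 and 195 cpm (-0.29). Tenocyte levels lay below FAPs for 9 of 20 measured members at day 7 and for 13 of 16 at day 0, and above them for 0 at either day. Over all genes, 11.7% were lower than in FAPs and 7.81% higher at day 7, and 16.4% and 9.65% at day 0.

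Ifit1 lies on chromosome 19 of mm10, from 34640871 to 34650009 on the plus strand. The 250 bases before its RefSeq start (GRCm38.p6, chr19:34640639-34640888, plus strand, 5′ to 3′) are shown because interferon response elements are what this list is known for; capitals mark matches to GAAA, any 2 bases and GAAA, searched on both strands and here found on the minus strand.
Ifit1: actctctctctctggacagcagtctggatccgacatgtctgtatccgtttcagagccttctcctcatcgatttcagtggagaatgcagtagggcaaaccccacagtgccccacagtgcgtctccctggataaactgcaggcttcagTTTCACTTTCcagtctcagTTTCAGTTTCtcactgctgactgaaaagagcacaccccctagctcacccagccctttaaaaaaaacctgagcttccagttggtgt
There were 2 matches, the nearer 75 bases from the start. This motif was found in the same window of 3.04% of 27025 genes and of 8 of the 14 genes of the interferon list that had an entry (57.1%).

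Among stromal chemokines and inflammatory genes 6 of 19 were higher and 4 lower. The monocyte chemokines Ccl2 and Ccl7 stood at 243 and 213 cpm in day 7 tenocytes and at 34.2 and 24.4 cpm in day 0 tenocytes (2.83 and 3.12). In FAPs they stood at 177 and 436 cpm at day 7 and at 563 and 574 cpm at day 0 (-1.67 and -0.40). The tenocyte level over FAPs was therefore 0.46 for Ccl2 at day 7 and -4.04 at day 0. Ccl7 had a UMI in 18 of 88 day 7 tenocytes, and the top 5 cells held 86.1% of its UMIs. Cxcl14 (2.08), Cxcl12 (1.19), Ccl19 (2.01) and Cxcl9 (4.46, in 4 cells and 1 cell) were the others higher, and Ccl11 (-2.96), Serping1 (-1.87), Ptgs2 (-1.28) and Cxcl2 (-1.12) the ones lower. Of 24 members measured against FAPs at day 7, 17 were lower in tenocytes and 0 higher, and of 22 at day 0, 14 were lower and 1 higher. Over all genes, 11.7% were lower than in FAPs and 7.81% higher at day 7, and 16.4% and 9.65% at day 0.

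**Figure D5:**
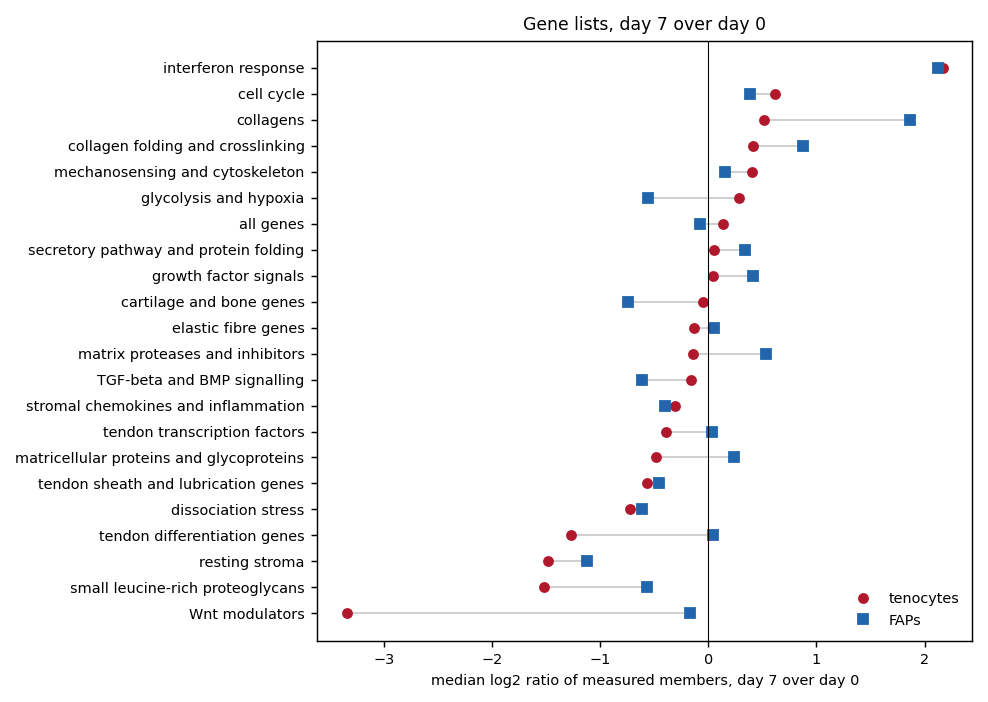
Median log2 ratio of the measured members of 21 gene lists and of all genes, day 7 over day 0, in tenocytes (circles) and FAPs (squares). The interferon list has medians of 2.17 and 2.12, and Wnt modulators of -3.34 and -0.17; the tenocyte and FAP ratios share the same 2 libraries.

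Genes of resting stroma stood lower. Of 13 resting stroma genes measured, 8 were lower and 0 higher in tenocytes at day 7 (median -1.48, against -1.12 in FAPs), among them Pi16 (-4.13), Clec3b (-3.45), Gsn (gelsolin, at 1403 and 10126 cpm, -2.85) and Dpp4 (-2.23). Pi16 and Clec3b are also FAP markers, and the FAP marker sum in tenocytes stood at 976 cpm at day 7 and 2502 cpm at day 0. Of 24 genes induced by tissue dissociation, 5 were lower and 0 higher in tenocytes (median -0.72), and 3 were lower and 0 higher in FAPs (median -0.61). Without the tenocytes with macrophage or mature muscle markers 2 of 24 were lower (median -0.47), beside 342 of 3740 over all genes. Fos and Jun, the AP-1 factors, stood at 2249 and 1120 cpm at day 7 and at 4844 and 2260 cpm at day 0 (-1.11 and -1.01), with FAP ratios of 0.01 and 0.02. The part of dissociation in the values of other genes was not tested.

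Few cell cycle genes could be measured in tenocytes, 10 of 22. Of these, 5 (50%) were higher and 2 (20%) lower, against 12.9% and 7.80% of all genes, and in FAPs 4 and 3 of 22. Stmn1, a microtubule regulator, stood at 117 and 4.89 cpm at days 7 and 0 (4.58, in 24 and 2 cells), and H2afz, Hmgb2 and Tyms at 1.20, 1.45 and 1.31. Birc5 was at least 4.59-fold higher, from 6 cells, and Cdkn1a, a cell cycle inhibitor, was lower (-1.12), as was the tubulin Tuba1b (-1.02). Birc5 and Stmn1 counted as measured only through their day 7 UMIs, where they were high, so part of the share called higher follows from the filter. Of 18 genes of mechanosensing and the cytoskeleton, 3 were higher and 1 lower. Tagln, a smooth muscle actin-binding protein, stood at 134 and 4.89 cpm (4.78, in 16 cells and 1 cell), Tpm2 at 202 and 46.4 cpm (2.12) and the stretch-gated channel Piezo1 at 86.1 and 34.2 cpm (1.33, 0.48 to 2.28). Itgbl1 was lower (-1.46). Of 13 glycolysis and hypoxia genes 1 was higher (Hif1a, 1.39) and 1 lower (Bnip3, -1.56), and of 24 genes of the secretory pathway 0 were higher and 1 lower (Creb3l1, a factor for collagen secretion genes, -1.21). Of 9 tendon sheath genes 1 was higher (the hyaluronan receptor Cd44, 2.31) and 3 (33.3%) lower (Has1, Dpp4 and Cd34), and lubricin (Prg4) stood at 810 and 1248 cpm (-0.62). Without the tenocytes with macrophage or mature muscle markers Has1 was at -0.55, within 2-fold. Of 6 sheath genes then measured, 1 was higher and 2 lower. Of 6 cartilage and bone genes 1 was higher (Spp1) and 2 lower (Matn3, -2.72, and Col2a1, -1.28). Col2a1 was within 2-fold without its top cell (-0.99) and without the tenocytes with macrophage or mature muscle markers (-0.42).

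Several of the largest ratios rested on single cells. Penk, the enkephalin precursor, had 209 of its 212 day 7 UMIs in 1 tenocyte, and its ratio of 4.06 became -2.06 without that cell. Reg3g had 220 of 242 UMIs in 1 cell, and Slpi 446 of 634. Without the top cell the Slpi ratio was 1.95, against 3.69 with it, and Reg3g kept 22 UMIs. These were 3 different cells. The imprinted gene Mest, in contrast, was spread over 42 cells at day 7 and 4 at day 0, at 554 and 19.5 cpm (4.83).

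Day 7 tenocytes were not alike among themselves. Chad had a UMI in 39 of them and in 62 of 70 at day 0. The 39 cells with Chad had 3053 cpm of Comp, 809 cpm of Cilp2, 395 cpm of Wif1 and 8964 cpm of Fmod, and the 49 cells without it 229, 47.7, 2.38 and 1649 cpm. Their median depths were 6986 and 7272 UMIs. The genes of the mature tendon matrix thus went together in the same cells, and Wif1 was found in 30 of the 39 cells with Chad and in 1 of the 49 without. Scx (531 and 555 cpm) and Thbs4 (10153 and 9796 cpm) were near level between these cells, and Tnmd stood at 4479 and 2772 cpm.

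Of the genes higher at day 7, some had a higher summed level in cells without Chad and some a lower one. Spp1 stood at 2460 cpm in the 39 cells with Chad and 922 cpm in the 49 without, but had a UMI in 15 and 22 of them. The macrophage lysozyme Lyz2 stood at 1726 and 207 cpm, with a UMI in 33 and 39 cells. A single tenocyte held 42.5% of the day 7 Spp1 UMIs, and another held 50.2% of those of Lyz2. The split was not computed without these cells. Postn stood at 454 cpm in the 39 cells with Chad and 2972 cpm in the 49 without, and Timp1 at 1386 and 3039 cpm. Mmp13 stood at 1485 cpm in the 39 cells with Chad and 2212 cpm in the 49 without, but had a UMI in 3 and 19 of them. The 22 cells with Mmp13 had less Scx than the 66 without it (234 and 670 cpm), less Fmod (2252 and 5879 cpm) and less Tnmd (2196 and 4048 cpm), at median depths of 9575 and 6324 UMIs. Col22a1 was in 29 day 7 tenocytes and 3 at day 0. The 29 cells had 953 cpm of Scx, 4601 cpm of Timp1, 3548 cpm of Postn, 501 cpm of Chodl and 11.6 cpm of Wif1, and the other 59 had 326, 1097, 979, 95 and 260 cpm. The 3 day 0 cells with Col22a1 showed the same set: all 3 had Chodl, Postn and Timp1, and 0 of them had Chad or Wif1, which 62 and 64 of the other 67 had. Cells without a UMI of a gene may still express it, so these are descriptions of counts, and no split was tested.

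Markers of other cell types were present in day 7 tenocytes and are given here for the results above. The 8 macrophage markers summed to 1512 cpm in day 7 tenocytes and 354 cpm in day 0 tenocytes, and 30 of 88 and 2 of 70 tenocytes had at least 3 of them. In FAPs the sum was 1215 cpm at day 7 and 51.2 cpm at day 0. The 8 mature muscle markers summed to 531 and 132 cpm in tenocytes and 527 and 226 cpm in FAPs, and in 1 tenocyte to 54231 cpm. The highest macrophage marker sum in a single tenocyte was 30789 cpm at day 7 and 6951 cpm at day 0. Endothelial markers stood at 144 and 142 cpm, smooth muscle or pericyte markers at 253 and 237 cpm, NK or T cell markers at 156 and 2.44 cpm and bone markers at 18.8 and 24.4 cpm in tenocytes at days 7 and 0. Cartilage markers stood at 88.8 and 281 cpm, red cell markers at 9.41 and 281 cpm, platelet markers at 25.6 and 120 cpm and Schwann cell markers at 1.34 and 24.4 cpm. Muscle stem cell markers stood at 266 and 58.6 cpm, of which Chodl gave 237 and 56.2 cpm, and Pax7, Myod1 and Cdh15 had 0 UMIs in tenocytes at both days. The part of these cells' RNA in the results was not tested, and values without the affected cells were computed: leaving out cells with at least 3 macrophage or 3 mature muscle markers kept 44 of 88 day 7 and 64 of 70 day 0 tenocytes.

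In those cells the tendon differentiation list had 7 of 17 lower and 1 higher, collagens 7 of 19 higher and 1 lower, interferon genes 7 of 8 higher, Wnt modulators 4 of 7 lower and resting stroma 8 of 13 lower. The ratio was -1.81 for Chad, -2.51 for Cilp2, -2.60 for Wif1, 3.72 for Timp1, 3.10 for Postn, 4.94 for Spp1 and 7.95 for Mmp13. Tnmd stood at -0.004. Comp was at -0.69, within 2-fold, and Tagln at 1.64. Over all genes 367 of 3740 measured were higher and 342 lower.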

How the data were processed

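Single-cell 3' RNA-seq counts, deposited by the authors as 1 matrix of whole-number UMI counts per day, were summed over the cells of each label. The authors also deposited natural log values, which equalled ln(1 + 10000 × count / cell total) within 5.3e-15, and a mitochondrial fraction per cell. They also deposited the cell labels, used unchanged; 57 barcodes without a label were left out, as were 16 other label columns. Cell Ranger 2, R 3.6.2, Seurat 2.3.4 and mm10 appear in the submitters' processing notes without their roles.

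Sums were turned into cpm. Log2 ratios carry exact binomial 95% intervals that cover counting error only, and a class at 0 was set to 3 counts. There was 1 library per day, so no test was made; tenocytes and FAPs were compared within a day. No doublet caller was run, and cells above 2 times the median UMI count were left out as an alternative. The ratio code was tested on simulated data. The members, the 21 gene lists (403 genes) and the 13 marker lists were chosen with earlier results of these data known. The text names the 5 markers, the 10 largest and 10 smallest ratios of day 7 over day 0, the 10 genes furthest above and the 5 furthest below FAPs at each day, and list members with the 3 largest absolute ratios or a described role. Apart from markers and list members, such genes had at least 100 cpm and 30 UMIs on the higher side. Their level there was at least 0.5 times that of any other label with 50 or more cells. Between days, the sex-linked genes Xist, Tsix, Ddx3y, Eif2s3y, Uty and Kdm5d were left out. Other genes of the sex chromosomes stayed in, such as Timp1 and Tnmd, both on the X chromosome. Genes used to split tenocytes among themselves were chosen after their values were seen. Promoter sequences came from RefSeq (GRCm38.p6). Python 3.11.15, numpy 2.4.6, pandas 2.3.3, scipy 1.17.1 and matplotlib 3.10.9 were used.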

Additional observations from a re-analysis of the deposited data

Results flagged for a closer look

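At days 2 and 5 after injury no cell was labelled a tenocyte, and these days entered no comparison above. There, 2.70% of 667 FAP-labelled cells at day 2 and 2.29% of 828 at day 5 had a UMI of at least 3 of the 5 tenocyte markers. The share of FAPs at day 0 was 0.37%. Most cells with these markers carried the label Tenocytes at day 0, a label that days 2 and 5 lacked. The FAP shares are therefore not of like cells. The median depth of these FAPs was 12321 UMIs at day 2, 2785 at day 5 and 4452 at day 0, and with every cell thinned to 1000 UMIs, an alternative chosen after seeing the data, day 2 gave 1.20% (0.519 to 2.35), day 5 gave 1.09% (0.498 to 2.05) and day 0 gave 0.0569% (0.00689 to 0.205). Over thinned cells of any label, whose mix differed between days, the shares were 0.163% at day 2, 0.416% at day 5 and 1.31% at day 0. The day 2 mice were 7 months old and those of the other days 4 months. Thbs4, which FAPs carried at 52.1 cpm at day 0, stood in FAPs at 285 cpm at day 2 and 1019 cpm at day 5.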

How the results depend on the processing

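No paired analysis was possible because each day has 1 library. Between day 7 and day 0 tenocytes, the counts of genes higher and lower were 183 and 114 of 1174 measured when cells were thinned to 1000 UMIs, 311 and 201 with at least 50 UMIs, 1656 and 1169 with at least 1 UMI, and 168 and 147 over the whole counting interval; 367 were higher without cells with macrophage or mature muscle markers. Against FAPs at day 0, 946 were lower after thinning, 702 higher with at least 50 UMIs, 1636 higher with at least 1 UMI, and 306 and 293 higher and lower over the whole interval. Against FAPs at day 7 the same values were 805, 561, 1541, 299 and 291. The share of tenocytes at day 7 was 2.98% of non-immune cells, and cells of any label with at least 3 markers were 3.27%. Epyc changed sign after thinning (0.67), Penk without its top cell (-2.06), and Tagln over FAPs at day 7 without cells with macrophage or mature muscle markers (-1.33). Of the values for named genes, 1348 stayed within their interval, 230 moved and 3 changed sign; of list medians, 482 stayed and 43 moved. The alternatives that leave out marker-bearing or top cells were chosen after seeing the data; the causes were not tested. Depth limits genes under 20 UMIs, and with 1 library per day no spread between animals is known.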
